A study of Homo sapiens with 12 samples.

Results

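La and the La-related proteins (LARPs) are 7 genes of the 63541 listed in the deposited count table, taken by symbol through their Ensembl identifiers and not by any measured value: SSB, which encodes La, and LARP1, LARP1B, LARP4, LARP4B, LARP6 and LARP7. All 7 passed the filter on low counts that left 21999 genes for testing, and each had its own row. The cells were HEK293T, a human embryonic kidney line that carries the large T antigen of SV40. Each culture received 12.5 nM of a single siRNA for 48 h, either a scramble control or si-snaR-A#1, si-snaR-A#2 or si-snaR-A#3, which are directed against the small noncoding RNA snaR-A, and every group had 3 biological replicates, 12 libraries in all. The control cultures were transfected in the same way.

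La binds the run of uridines that ends a new RNA polymerase III transcript and protects the RNA from exonucleases while it is processed and folded. The LARPs carry the same RNA-binding fold but have different partners. LARP7 stays on the 7SK RNA, which holds back the elongation factor P-TEFb. LARP1 binds the cap and the pyrimidine tract of TOP mRNAs under the control of mTORC1. LARP4 binds poly(A) and its binding protein PABP, LARP4B also binds PABP, and LARP6 binds a stem-loop of collagen mRNAs. snaR-A is itself an RNA polymerase III transcript, and the study describes it as a ligand of La.

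The snaR-A genes are shown for the T run that La reads as uridines. RefSeq places 14 SNAR-A genes on chromosome 19 of the hg38 build, 121 to 122 bases long, with 3 distinct sequences between them. The commonest sequence is that of 10 copies, and the SNAR-A1 sequence is that of 2. SNAR-A1 has a C just before the T run that the commonest sequence lacks. The sequence of SNAR-A1, at chr19:47918429-47918550 on the plus strand, is printed with the closing T run in capitals:
SNAR-A1: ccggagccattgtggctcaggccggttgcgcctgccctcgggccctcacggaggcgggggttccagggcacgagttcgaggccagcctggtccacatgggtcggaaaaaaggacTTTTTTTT
Read on the strand that closes with the T run, each of the 14 copies ended in 8 Ts and held GTTCGAGGC at base 74, a match to the B-box of RNA polymerase III promoters searched as GTTCGANNC on that strand. In the leading 122 bases of 35116 RefSeq promoter windows the pattern was present in 0.125%. None of the 14 copies has a row of its own in the count table, so the depletion of the target could not be read from these libraries.

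The library totals ran from 120368367 to 180111992 counts, and levels are given in CPM, the count of a gene after all libraries are scaled to the same total, with TMM scaling factors. A gene was called changed where the Benjamini-Hochberg adjusted p of the quasi-likelihood test in edgeR, taken over all tested genes, was below 0.05. Gene positions are those of GENCODE 44 on hg38. CPM is a share of a library's RNA, so a change in RNA per cell cannot be told apart from a change of the other RNAs. The first principal component, with 37.8% of the variance over 14529 genes, set the 3 si-snaR-A#1 libraries apart from the other 9. Of 7 markers of the line, KRT8, KRT18, PAX2, NEFL, NEFM and VIM were above 4 CPM in every library and LHX1 was at or below 0.889 CPM. Of 6 markers of other cell types, PTPRC, PECAM1, CDH5, ALB and INS stayed at or below 0.134 CPM and CD68 at or below 1.01 CPM. CD68, a lysosomal protein of macrophages and the single one of the 6 that was tested, averaged 0.289 CPM in scramble and 0.529, 0.402 and 0.723 CPM in the siRNA groups by number, called higher with si-snaR-A#1 (0.87 on the log2 scale, adjusted p = 0.0338 in edgeR) and si-snaR-A#3 (1.32, adjusted p = 0.00531). Its part in the results was not tested.

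SSB had the highest level of the 7 genes per length of merged exons in the scramble libraries, 84.2 ± 1.29 CPM per kb (SD, n = 3). LARP1 followed at 39.6 ± 0.162, LARP4 at 20.7 ± 0.427 and LARP7 at 10.2 ± 0.0573 CPM per kb. LARP4B had 7.33 ± 0.223, LARP1B 5.68 ± 0.111 and LARP6 5.41 ± 0.24 CPM per kb. The first 5 genes were separated from their neighbours beyond the spread of the replicates, whereas the ranges of LARP1B, 5.56 to 5.76, and LARP6, 5.15 to 5.62, overlapped. With the median transcript length in place of merged exons SSB, LARP1 and LARP4 kept the first places, and the other 4 genes exchanged theirs.

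**Figure D1:**
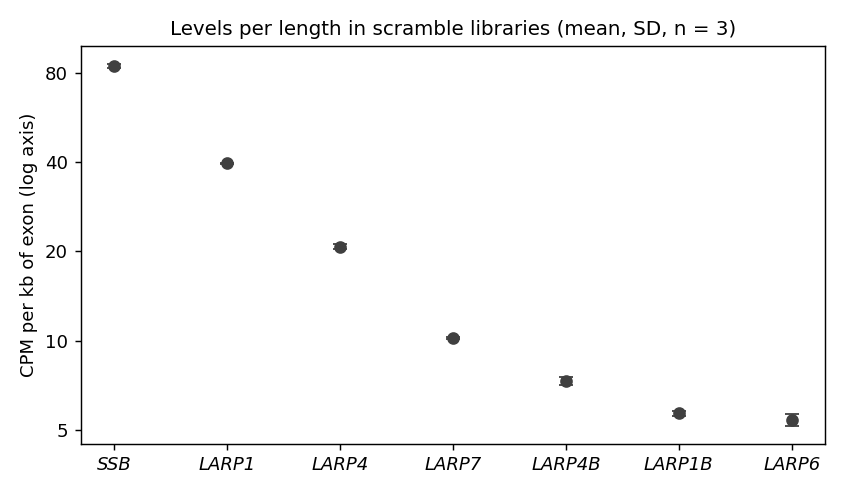
Level of each gene in the scramble libraries in CPM per kb of merged exons on a log axis, as the mean and SD of 3 libraries. SSB stands highest at 84.2 and LARP6 lowest at 5.41 CPM per kb.

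SSB mRNA was lower after transfection of si-snaR-A#1 and, to a lesser degree, of si-snaR-A#2, and no change was called for si-snaR-A#3. SSB (ENSG00000138385, chr2:169791933-169812064, plus strand) measured 419, 432 and 425 CPM in the scramble libraries and 225, 231 and 238 CPM with si-snaR-A#1. It measured 348, 318 and 360 CPM with si-snaR-A#2 and 416, 393 and 415 CPM with si-snaR-A#3. The 3 si-snaR-A#1 libraries lay far below all others, the si-snaR-A#2 libraries came between, and the si-snaR-A#3 libraries lay just under the scramble range without touching it.

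Against scramble, SSB fell by 0.88 on the log2 scale with si-snaR-A#1 (adjusted p = 1.77e-08 in edgeR, SE 0.047), to 0.544 of the control level. It fell by 0.31 with si-snaR-A#2 (adjusted p = 0.000305 in edgeR, SE 0.047), to 0.804 of the control level. With si-snaR-A#3 the difference was -0.06 (95% interval -0.16 to 0.04, edgeR adjusted p = 0.359). The size of the SSB change exceeded that of 89.4% of all genes tested with si-snaR-A#1, of 68.4% with si-snaR-A#2 and of 16.3% with si-snaR-A#3. The siRNAs also differed from each other: si-snaR-A#1 was below si-snaR-A#2 (difference -0.56, adjusted p = 7.46e-07) and below si-snaR-A#3 (difference -0.82, adjusted p = 2.68e-08), and si-snaR-A#2 was below si-snaR-A#3 (difference -0.25, adjusted p = 0.00288). These calls for SSB held in every one of the 20 alternative settings. The 3 siRNA groups share the same scramble libraries, so their differences from it are not independent of each other.

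SSB exons overlap METTL5, a gene for an RNA methyltransferase subunit on the opposite strand, over 572 bases or 11.318% of the SSB exon length, and the strand setting of the counting was not given in the sources used here. METTL5 itself averaged 47.9 CPM in scramble and 44.6, 55.1 and 48.3 CPM in the siRNA groups by number, so it was far below SSB in every group. The 14 annotated pseudogene rows of SSB and the LARPs stayed at or below 0.695 CPM.

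**Figure D2:**
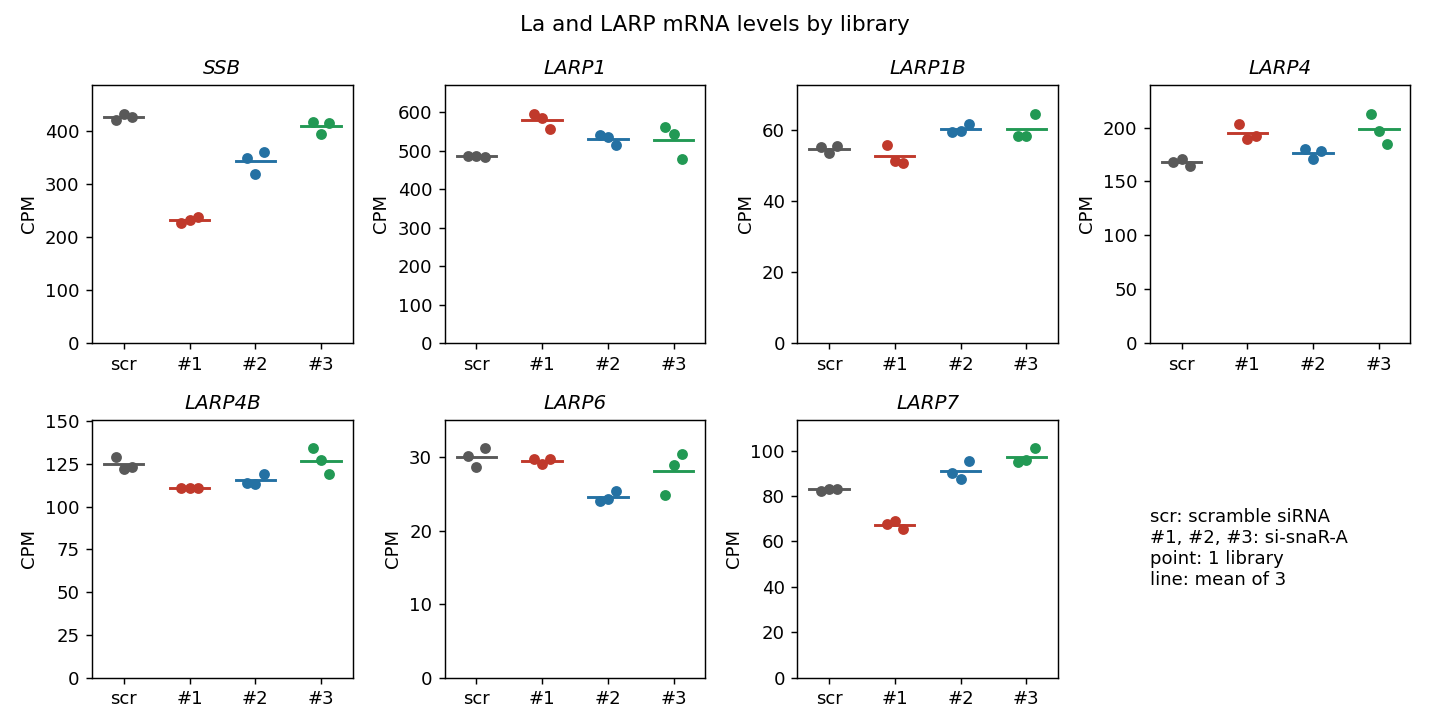
CPM of the 7 genes in each library, on axes that start at 0, with 1 point per library and a line at the mean of 3. The SSB points fall from 419 to 432 in scramble to 225 to 238 with si-snaR-A#1, and LARP7 is lowest with si-snaR-A#1 and highest with si-snaR-A#3.

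LARP7 moved in opposite directions with different siRNAs. LARP7 (ENSG00000174720, chr4:112637077-112657696, plus strand), the 7SK-binding member, measured 82.4, 83.3 and 83.1 CPM in scramble and 67.8, 68.8 and 65.4 CPM with si-snaR-A#1. It measured 90.1, 87.3 and 95.4 CPM with si-snaR-A#2 and 94.8, 96 and 101 CPM with si-snaR-A#3. No si-snaR-A library overlapped the scramble range: those of si-snaR-A#1 were all below it and the other 6 all above it.

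LARP7 fell by 0.3 on the log2 scale with si-snaR-A#1 (adjusted p = 5.65e-05 in edgeR, SE 0.041) and rose by 0.23 with si-snaR-A#3 (adjusted p = 0.000923 in edgeR, SE 0.041). The rise with si-snaR-A#2 was 0.13 (adjusted p = 0.0301 in edgeR, SE 0.041). The last of these was lost, at adjusted p of 0.0646 to 0.137, when si-snaR-A#2 replicate 1, si-snaR-A#2 replicate 3, scramble replicate 1 or scramble replicate 2 was left out. It was also lost under upper quartile scaling and with no filter on low counts, and was called in 14 of 20 alternative settings. Directly compared, si-snaR-A#1 lay below si-snaR-A#2 (difference -0.43, adjusted p = 2.3e-06) and below si-snaR-A#3 (difference -0.53, adjusted p = 3.29e-07), while si-snaR-A#2 was not called against si-snaR-A#3 (difference -0.1, 95% interval -0.19 to -0.01, adjusted p = 0.129). The mean of the 3 siRNAs against scramble was near 0 for LARP7, at 0.02 (95% interval -0.05 to 0.09). MIR302CHG, an RNA on the opposite strand that overlaps 16.284% of the LARP7 exon length, had 0.144 to 0.376 CPM as group means.

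Among the partners of LARP7 on 7SK and in P-TEFb, 6 genes were tested, and over the mean of the 3 siRNAs 2 rose, 1 fell and 3 were not called (median 0, against -0.04 over all genes). Over all tested genes 32.2% were called in that comparison, and 49.0% of those at 10 CPM or more. CDK9, the kinase of P-TEFb, stood at 22.8 ± 0.604 CPM in scramble (SD, n = 3) and at 30.1 ± 1.11, 27.4 ± 0.358 and 30.2 ± 1.22 CPM in the siRNA groups by number. CDK9 rose with each siRNA, by 0.4, 0.27 and 0.4 on the log2 scale (largest edgeR adjusted p = 0.000598). CCNT1, its cyclin subunit, rose with si-snaR-A#1 by 0.38 and with si-snaR-A#2 by 0.23, and its difference of 0.1 with si-snaR-A#3 was not called (adjusted p = 0.0852). MEPCE, the enzyme that caps 7SK, fell with si-snaR-A#1 by 0.15 and with si-snaR-A#3 by 0.48 and stood at 0 (95% interval -0.11 to 0.12) with si-snaR-A#2. HEXIM1, the protein that inhibits P-TEFb within the 7SK complex, averaged between 32.2 and 34.9 CPM in the 4 groups and was not called in any comparison. LARP7 itself fell with si-snaR-A#1 and rose with si-snaR-A#3, and its rise with si-snaR-A#2 was lost in some settings. A link between LARP7 and these genes was not tested.

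The abundant RNA polymerase III transcripts themselves carry no poly(A) tail, while the libraries were selected for poly(A), and they varied widely between replicates. Of 12 such rows, 5 were tested. RN7SK, the RNA that LARP7 holds, read 2.42, 4.66 and 11 CPM in scramble and 20.2, 13.1 and 16.6 CPM with si-snaR-A#1. It read 9.49, 2.72 and 0 CPM with si-snaR-A#2 and 3.43, 2.86 and 1.75 CPM with si-snaR-A#3. RN7SK was highest in the si-snaR-A#1 libraries, above every scramble library, but its difference from scramble of 1.46 had a 95% interval from -0.52 to 3.44 (edgeR adjusted p = 0.218).

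RN7SL1, the RNA of the signal recognition particle and a La ligand, named here after its values were seen and uncertain because RN7SL2 is a near-identical copy, read 48.1, 26.2 and 3.32 CPM in scramble and 2.41, 2.48 and 2.74 CPM with si-snaR-A#1. It read 2.65, 43 and 50.6 CPM with si-snaR-A#2 and 48.6, 30 and 48.3 CPM with si-snaR-A#3. Scramble replicate 3 and si-snaR-A#2 replicate 1 were thus as low as the si-snaR-A#1 libraries, or nearly so, and these 5 libraries were also those in which RN7SK was above 9 CPM. RN7SL1 was called lower with si-snaR-A#1 (-3.35, adjusted p = 0.0125 in edgeR, SE 0.97), beside a scramble group that itself ran from 3.32 to 48.1 CPM. For SSB and for LARP7, scramble replicate 3 and si-snaR-A#2 replicate 1 each lay between the other libraries of their group. All si-snaR-A#1 libraries fell on the same side of the split, and its part in the SSB and LARP7 values was not tested.

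**Figure D3:**
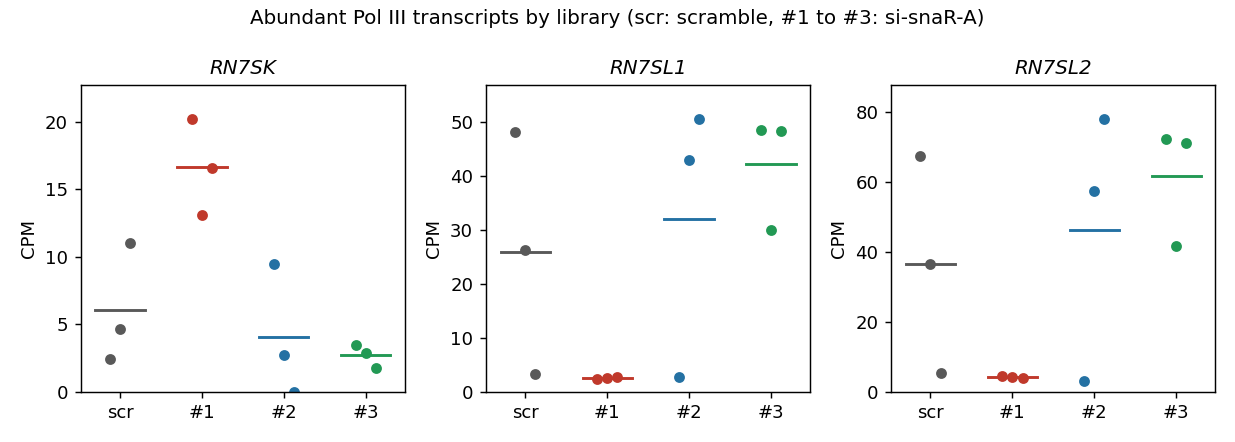
CPM of RN7SK, RN7SL1 and RN7SL2 in each library, on axes that start at 0, with 1 point per library and a line at the mean of 3. RN7SL1 and RN7SL2 are low in all si-snaR-A#1 libraries but also in scramble replicate 3 and si-snaR-A#2 replicate 1, which are high for RN7SK.

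The proteins that handle RNA polymerase III transcripts next to La were called mostly with si-snaR-A#1: of 10 tested genes 3 rose and 6 fell (median -0.18), against 2 called, both higher, for si-snaR-A#2 and 2 higher and 1 lower for si-snaR-A#3. Over all genes 45.2%, 25.8% and 29.4% were called for the 3 siRNAs by number, and of the 10198 genes that averaged 10 CPM or more 63.3%, 40.2% and 46.6%, so si-snaR-A#1 had more calls throughout. RO60, the Ro protein that binds Y RNAs and misfolded transcripts together with La, measured 235, 238 and 208 CPM in scramble and 148, 145 and 156 CPM with si-snaR-A#1. It measured 217, 221 and 229 CPM with si-snaR-A#2 and 257, 239 and 217 CPM with si-snaR-A#3. RO60 fell by 0.6 with si-snaR-A#1 (adjusted p = 7.38e-06 in edgeR, SE 0.065) and was not called in the other 2 groups, at -0.03 for si-snaR-A#2 and at 0.07 for si-snaR-A#3. LSM7, a subunit of the LSm ring that binds the U6 3' end after La, rose with each siRNA, by 0.67, 0.18 and 0.28. LSM6, another subunit, rose over the mean of the 3 siRNAs by 0.11 (SE 0.033, adjusted p = 0.0236). Other listed LSM genes were called lower with si-snaR-A#1: LSM8 by 0.58, LSM3 by 0.33 and LSM5 by 0.16. LSM4 was not called with any siRNA, and LSM8 rose by 0.26 with si-snaR-A#3. LSM2 was listed at 0 in every library, while every other listed LSM gene had 23.8 CPM or more in each. Whether LSM2 mRNA was absent or its row received no counts was not tested.

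LARP1, the repressor of TOP mRNAs, was higher with si-snaR-A#1. LARP1 (ENSG00000155506, chr5:154682986-154817605, plus strand) measured 487, 486 and 483 CPM in scramble and 597, 585 and 557 CPM with si-snaR-A#1. It measured 541, 537 and 515 CPM with si-snaR-A#2 and 561, 545 and 479 CPM with si-snaR-A#3. All si-snaR-A#1 and si-snaR-A#2 libraries lay above the scramble range, and so did those of si-snaR-A#3 except replicate 3, which fell below it.

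LARP1 rose by 0.26 on the log2 scale with si-snaR-A#1 (adjusted p = 0.0016 in edgeR, SE 0.054) and over the mean of the 3 siRNAs by 0.17 (adjusted p = 0.0101 in edgeR, SE 0.044). The differences of 0.13 with si-snaR-A#2 (95% interval 0.01 to 0.25, adjusted p = 0.0967) and 0.12 with si-snaR-A#3 (95% interval 0.01 to 0.24, adjusted p = 0.106) were not called. Both were called once si-snaR-A#3 replicate 3 was left out, at adjusted p of 0.0266 and 0.00678. si-snaR-A#1 stood above si-snaR-A#2 by 0.13 (adjusted p = 0.07, or 0.0194 without si-snaR-A#3 replicate 3) and above si-snaR-A#3 by 0.13 (adjusted p = 0.0548). The latter was called without si-snaR-A#1 replicate 3 or without si-snaR-A#3 replicate 1, at 0.0213 to 0.0465.

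LARP1B, the closest relative of LARP1, was lower with si-snaR-A#1 than with either of the other siRNAs. LARP1B (ENSG00000138709, chr4:128061286-128222931, plus strand) measured 55, 53.3 and 55.3 CPM in scramble and 55.7, 51.2 and 50.7 CPM with si-snaR-A#1. It measured 59.2, 59.5 and 61.5 CPM with si-snaR-A#2 and 58.1, 58.2 and 64.5 CPM with si-snaR-A#3. The si-snaR-A#2 and si-snaR-A#3 libraries all exceeded those of the other 2 groups, which overlapped each other.

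For LARP1B, si-snaR-A#1 lay below si-snaR-A#2 (difference -0.19, adjusted p = 0.00572 in edgeR, SE 0.049) and below si-snaR-A#3 (difference -0.2, adjusted p = 0.0047 in edgeR, SE 0.049), and both calls held in every setting. The rises over scramble were at the threshold: 0.14 with si-snaR-A#3 (adjusted p = 0.0425) and 0.14 with si-snaR-A#2 (adjusted p = 0.0538). The first was lost, at adjusted p of 0.0517 to 0.162, without any of the 3 si-snaR-A#2 or the 3 scramble libraries or without si-snaR-A#3 replicate 3. It was also lost under upper quartile scaling, with no filter, at a mean of at least 1 CPM, with a replicate block and with the 2 groups alone, so that 8 of 20 settings called it. The second was called in 9 of 20 settings, among them, at 0.0221 to 0.0436, without any of the 3 si-snaR-A#1 libraries, si-snaR-A#3 replicate 3 or scramble replicate 3. With si-snaR-A#1 the difference from scramble was -0.05 (95% interval -0.16 to 0.05).

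A TOP mRNA begins with a C followed by pyrimidines, and LARP1 binds that start. Windows of 30 bases around each RefSeq start of hg38, 10 before it and 20 from it on, were searched on the gene's strand for a run of at least 5 C or T letters that opened with C within 5 bases of the start. Such a run was found at 21.1% of 35116 starts, at 9 of 12 starts of the 10 genes matched from the TOP mRNA list of 15 and at 4 of 16 starts of the La family, in SSB, LARP1 and LARP1B. The windows of SSB, whose mRNA changed most in the family, are shown with those of 2 classical TOP genes, with the run in capitals:
SSB, start chr2:169798871: gacggtccccatCTTCTTggagcgctttag
SSB, start chr2:169799302: tttttttttaCCTCCaccgccttctagtct
EEF1A1, start chr6:73521032: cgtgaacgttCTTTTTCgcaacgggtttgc
EEF2, start chr19:3985463: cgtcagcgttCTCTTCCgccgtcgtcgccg
The runs of EEF1A1 and EEF2 open exactly at the annotated start. That of the first SSB start opens 2 bases later, and that of its second start, 5 letters long, also opens exactly at the start. A match describes these letters and says nothing on which start the cells used.

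Of the 14 TOP mRNAs tested, not counting ribosomal protein genes, 1 rose and 6 fell with si-snaR-A#1 (median -0.08), and 3 were called with each of the other siRNAs, all higher. Over all genes 45.2%, 25.8% and 29.4% were called for the siRNAs by number, and 63.3%, 40.2% and 46.6% at 10 CPM or more, the latter above the called share of these 14 genes in each group. Of genes at 10 CPM or more, 26.6% were called higher and 13.6% lower with si-snaR-A#2, and 32.0% and 14.6% with si-snaR-A#3. Compared directly, si-snaR-A#1 differed from si-snaR-A#2 for 10 of the 14, or 71.4%, all lower with si-snaR-A#1. In that comparison 46.7% of all genes were called, 23.7% higher and 23.0% lower. Of those at 10 CPM or more 64.1% were called, 26.3% higher and 37.7% lower. The called share of the TOP mRNAs was thus near that of genes at 10 CPM or more. PABPC1, the cytoplasmic poly(A)-binding protein and a TOP mRNA, measured 1370, 1460 and 1460 CPM in scramble and 653, 676 and 605 CPM with si-snaR-A#1. It measured 1450, 1460 and 1500 CPM with si-snaR-A#2 and 1440, 1490 and 1490 CPM with si-snaR-A#3. PABPC1 fell by 1.15 with si-snaR-A#1 (adjusted p = 2.77e-09 in edgeR, SE 0.047), and its differences with the other siRNAs were 0.04 each and not called. EIF3F, a subunit of translation initiation factor eIF3, rose with each siRNA, by 0.26, 0.46 and 0.39. EIF4B, which aids the helicase eIF4A, rose over the mean of the 3 siRNAs by 0.17 (SE 0.04, edgeR adjusted p = 0.00661). It was not called with si-snaR-A#1 (0.04) and rose by 0.23 with each of the other siRNAs.

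In the mTORC1 and cap-binding list, 4 of 9 genes rose and 3 fell over the mean of the 3 siRNAs (median 0.11), where 32.2% of all tested genes and 49.0% of those at 10 CPM or more were called. EIF4A1, the helicase of the cap complex, rose with each siRNA by 0.35, 0.4 and 0.32. MLST8, a subunit of mTORC1, rose over their mean by 0.18 (edgeR adjusted p = 0.00521). It rose by 0.34 with si-snaR-A#1 and by 0.16 with si-snaR-A#3 and was not called with si-snaR-A#2 (0.05). RPS6KB1, the S6 kinase downstream of mTORC1, fell with each, by 0.52, 0.19 and 0.18 (largest edgeR adjusted p = 0.00192). EIF4EBP1, the inhibitor of cap-bound eIF4E, fell with si-snaR-A#2 by 0.77 and with si-snaR-A#3 by 0.53, whereas with si-snaR-A#1 its difference of -0.11 was not called (adjusted p = 0.134).

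LARP4, which binds poly(A) and PABP and lengthens poly(A) tails, was higher with 2 of the 3 siRNAs. LARP4 (ENSG00000161813, chr12:50392383-50480004, plus strand) measured 168, 171 and 164 CPM in scramble and 203, 189 and 192 CPM with si-snaR-A#1. It measured 180, 171 and 178 CPM with si-snaR-A#2 and 213, 197 and 185 CPM with si-snaR-A#3. The si-snaR-A#1 and si-snaR-A#3 libraries all lay above the scramble range, and those of si-snaR-A#2 reached down into it.

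LARP4 rose by 0.22 with si-snaR-A#1 (adjusted p = 0.00311 in edgeR, SE 0.05) and by 0.24 with si-snaR-A#3 (adjusted p = 0.00268 in edgeR, SE 0.05), and both calls held in every setting. With si-snaR-A#2 the difference was 0.07 (95% interval -0.03 to 0.18, adjusted p = 0.319). The gap by which si-snaR-A#1 exceeded si-snaR-A#2, 0.14 (adjusted p = 0.0317), was lost at 0.0523 to 0.125 without any of the libraries of those 2 groups or scramble replicate 3, and 11 of 20 settings called it. That of si-snaR-A#2 below si-snaR-A#3, -0.17 (adjusted p = 0.0373), was lost at 0.052 to 0.141 without any si-snaR-A#2 library, replicate 2 or 3 of si-snaR-A#1, replicate 1 or 2 of si-snaR-A#3, or replicate 2 or 3 of scramble, and 9 of 20 settings called it.

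LARP4B, the relative of LARP4, went the other way with si-snaR-A#1. LARP4B (ENSG00000107929, chr10:806933-931821, minus strand) measured 129, 122 and 123 CPM in scramble and 111 CPM in each si-snaR-A#1 library. It measured 114, 113 and 119 CPM with si-snaR-A#2 and 134, 127 and 119 CPM with si-snaR-A#3. The si-snaR-A#1 and si-snaR-A#2 libraries lay below the scramble range and those of si-snaR-A#3 spanned it.

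LARP4B fell by 0.17 with si-snaR-A#1 (adjusted p = 0.00748 in edgeR, SE 0.044), a call that held in every setting. The difference of -0.12 with si-snaR-A#2 was not called (adjusted p = 0.0757), but was without si-snaR-A#3 replicate 1 or 3, at 0.0413 to 0.0444. With si-snaR-A#3 it was 0.02 (95% interval -0.07 to 0.12). si-snaR-A#1 lay below si-snaR-A#3 (difference -0.19, adjusted p = 0.0032), and si-snaR-A#2 below si-snaR-A#3 (difference -0.14, adjusted p = 0.0548, or 0.0147 without si-snaR-A#3 replicate 3). The mean of the 3 siRNAs stood at -0.09 (adjusted p = 0.084, or 0.0275 without si-snaR-A#3 replicate 1).

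The genes of poly(A) binding and deadenylation, the setting in which LARP1 and LARP4 act, were called for 15 of 18 with si-snaR-A#1, 3 higher and 12 lower (median -0.19). With si-snaR-A#2 they were called for 8, 6 higher and 2 lower (median 0.04), and with si-snaR-A#3 for 10, 5 in each direction (median 0.03). The called shares of 83.3%, 44.4% and 55.6% stand beside 45.2%, 25.8% and 29.4% over all genes and 63.3%, 40.2% and 46.6% at 10 CPM or more. CNOT11, a subunit of the CCR4-NOT deadenylase, averaged 94 ± 2.57 CPM in scramble and 50.5 ± 1.12 CPM with si-snaR-A#1, a fall of 0.89 on the log2 scale (adjusted p = 3.16e-09 in edgeR, SE 0.038). PABPC4, a paralogue of PABPC1, averaged 198 ± 5.52 CPM in scramble and 155 ± 0.824 CPM with si-snaR-A#1 but 249 ± 9.03 and 254 ± 1.49 CPM with the other 2 siRNAs, called lower in the first case (-0.36) and higher in the others (0.33 and 0.36). CNOT1, the scaffold of CCR4-NOT, rose over the mean of the 3 siRNAs by 0.2 (SE 0.054, adjusted p = 0.0112). With si-snaR-A#1, then, PABPC1, PABPC4, CNOT11 and LARP4B were lower beside higher LARP4 and LARP1. The 3 genes of the list called higher with si-snaR-A#1 were CNOT1, CNOT3 and PAN3, by 0.22, 0.27 and 0.28.

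LARP6, the collagen mRNA-binding member, was called lower with si-snaR-A#2 and with neither of the others. LARP6 (ENSG00000166173, chr15:70829130-70854157, minus strand) measured 30.2, 28.6 and 31.2 CPM in scramble and 29.7, 29.1 and 29.8 CPM with si-snaR-A#1. It measured 24, 24.3 and 25.4 CPM with si-snaR-A#2 and 24.9, 29 and 30.4 CPM with si-snaR-A#3. The si-snaR-A#2 libraries lay below all scramble and si-snaR-A#1 libraries, and si-snaR-A#3 replicate 1 fell among them.

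LARP6 fell by 0.29 with si-snaR-A#2 (adjusted p = 0.00487 in edgeR, SE 0.064), and si-snaR-A#1 was above si-snaR-A#2 by 0.27 (edgeR adjusted p = 0.00409), both in every setting. The differences from scramble with si-snaR-A#1, -0.02 (95% interval -0.16 to 0.11), and si-snaR-A#3, -0.1 (95% interval -0.23 to 0.04), were not called. si-snaR-A#2 against si-snaR-A#3, -0.19, had an adjusted p of 0.0599, or 0.00414 without si-snaR-A#3 replicate 1. The mean of the 3 siRNAs, -0.14, had 0.0609, or 0.0241 to 0.0399 without si-snaR-A#3 replicate 1 or 3. LRRC49, a gene on the opposite strand that overlaps 2.215% of the LARP6 exon length, fell with si-snaR-A#1 by 0.89, where LARP6 was not called.

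All 9 tested genes of the collagen and LARP6 partner list were called over the mean of the 3 siRNAs, 6 higher and 3 lower (median 0.16), where 32.2% of all tested genes and 49.0% of those at 10 CPM or more were called. COL1A1, a chain of type I collagen, measured 25.4 ± 1.35 CPM in scramble and fell with each siRNA, by 0.17, 0.34 and 0.9. COL3A1, a type III collagen chain at 5.95 ± 0.109 CPM in scramble, rose with each, by 0.31, 0.53 and 0.81. MYH9, a nonmuscle myosin, rose by 1.05, 0.58 and 0.26. DHX9, an RNA helicase that partners LARP6, fell by 0.53 with si-snaR-A#1 and by 0.16 with si-snaR-A#2 and was not called with si-snaR-A#3 (0.05, adjusted p = 0.369). COL1A2, the other LARP6-bound type I chain, was at or near 0 in every library. COL1A1 fell most with si-snaR-A#3, where LARP6 was not called. A link between LARP6 and the genes of this list was not tested.

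**Figure D4:**
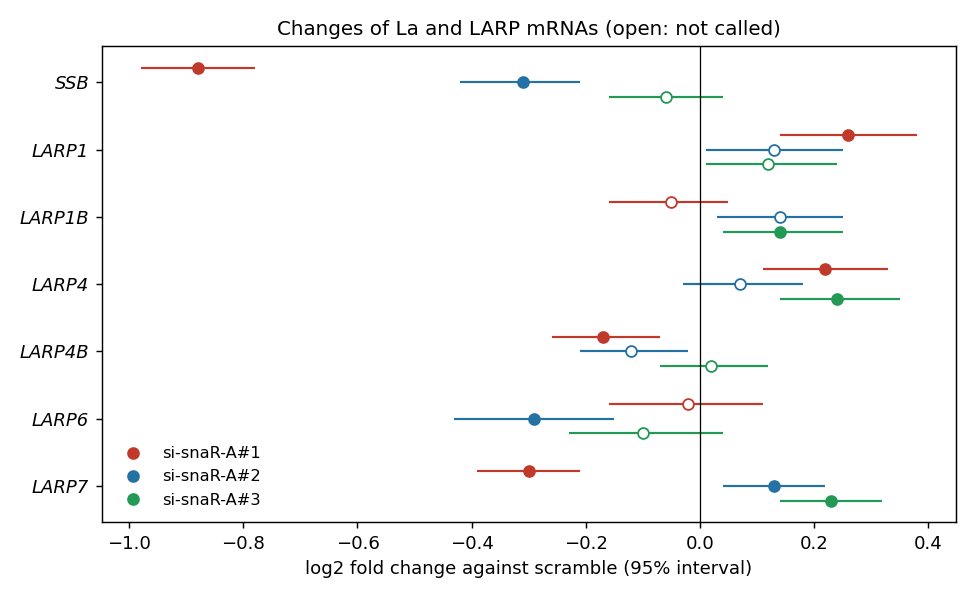
Log2 fold change of each gene against scramble for the 3 siRNAs, with 95% intervals; filled points were called by edgeR and open points were not. SSB with si-snaR-A#1 lies farthest from 0 at -0.88, and LARP7 lies below 0 for si-snaR-A#1 but above it for si-snaR-A#3.

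Counted together, 5 of the 7 genes were called with si-snaR-A#1, 2 higher and 3 lower (median -0.05), where 45.2% of all tested genes were called, 21.9% higher and 23.3% lower, and 63.3% of those at 10 CPM or more. With si-snaR-A#2, 3 were called, 1 higher and 2 lower (median 0.07), against 25.8% (13.7% higher and 12.1% lower) and 40.2%. With si-snaR-A#3, 3 were called, all higher (median 0.12), against 29.4% (16.5% higher and 13.0% lower) and 46.6% (32.0% higher and 14.6% lower). Set against scramble, the siRNA mean called 3, LARP1 and LARP4 higher and SSB lower, against 32.2% (15.6% higher and 16.6% lower) and 49.0%. The called share of the family, 71.4% with si-snaR-A#1 and 42.9% in each of the other groups, was thus near that of other genes at 10 CPM or more. These counts of 5, 3 and 3 became 5, 2 to 6 and 2 to 3 when 1 library was left out, and that over the siRNA mean 3 to 5.

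Between siRNAs, si-snaR-A#1 and si-snaR-A#2 differed for 5 of the 7 genes (2 higher and 3 lower, against 46.7% of all genes, 23.7% higher and 23.0% lower, or 64.1% at 10 CPM or more). si-snaR-A#1 and si-snaR-A#3 differed for 4, all lower with si-snaR-A#1 (against 48.6%, 23.8% higher and 24.8% lower). At 10 CPM or more 66.0% were called there, 25.4% higher and 40.7% lower. si-snaR-A#2 and si-snaR-A#3 differed for 2, SSB and LARP4, both lower with si-snaR-A#2 (against 15.6%, 6.52% higher and 9.03% lower). At 10 CPM or more 25.6% were called there, 10.9% higher and 14.7% lower. SSB was the single member called in all 3 of these comparisons. No member passed the test on the same side of 0 for every siRNA.

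**Figure D5:**
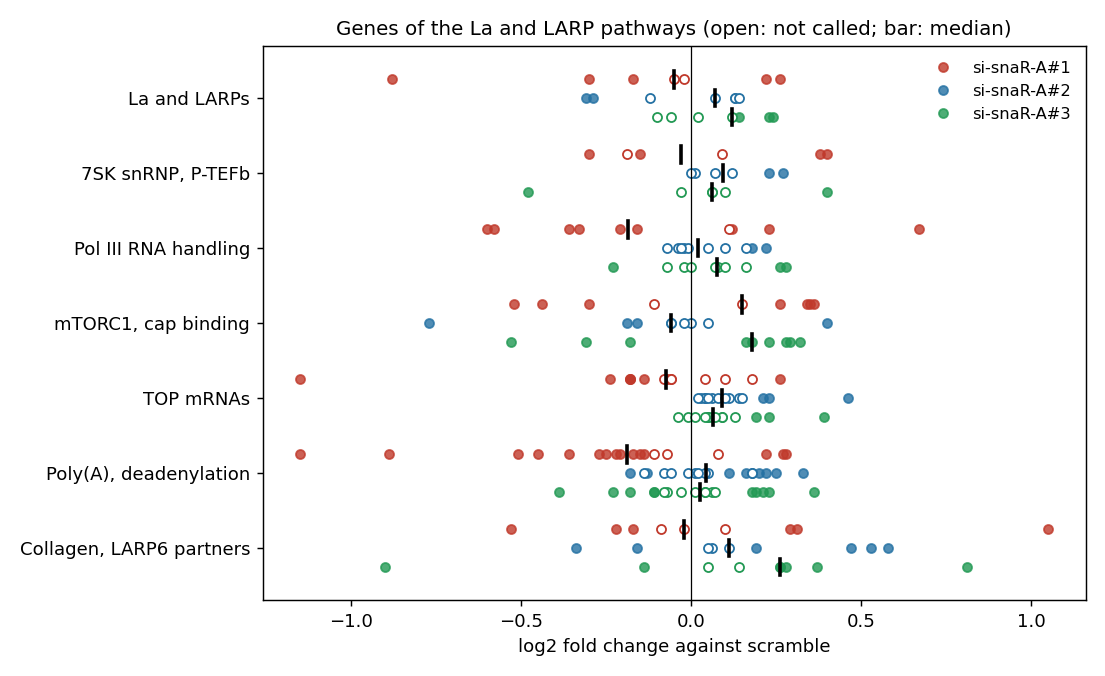
Log2 fold change against scramble of the La family and of 6 lists of partner genes, 1 point per gene and siRNA, filled where edgeR called the gene, with a bar at the median. The si-snaR-A#1 medians of the RNA polymerase III handling and poly(A) lists lie at -0.18 and -0.19, and those of the other siRNAs within 0.08 of 0.

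The genes whose log2 CPM ran most closely with each member over the 12 libraries were taken from those with at least 10 CPM, as a description: the libraries fall into 4 groups, so a shared group difference alone gives a high correlation. SSB ran closest with IGF2BP2 (r = 0.992), an mRNA-binding protein at 184 CPM in the controls and at 117, 157 and 182 CPM in the siRNA groups by number. LARP7 ran closest with UBA3 (r = 0.993), at 59.1, 43.4, 66.3 and 74.9 CPM in the same order, and with CCNB2 (r = 0.989). For LARP1 they were CENPP and ABLIM1 (r = 0.958 each), for LARP1B DNAJB9 (r = 0.943) and TMEM39A (r = 0.937), and for LARP4 STK38L (r = 0.954) and NUP35 (r = 0.938). For LARP4B they were TEX15 (r = 0.952) and RALGAPA2 (r = 0.944), and for LARP6 COX7B (r = 0.926) and PPOX (r = 0.904). The number of genes with r above 0.9 differed widely, from 1110 for LARP7 and 537 for SSB to 24 for LARP1B and 2 for LARP6. Within the family the closest pair was LARP1B and LARP7 (r = 0.848), and SSB ran against LARP1 (r = -0.796).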

How the data were processed

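RNA was sequenced from 12 HEK293T cultures after rRNA depletion and poly(A) selection with a stranded kit. The deposited values are estimated counts per gene that the authors made with Trim Galore and Salmon; the transcriptome release, how transcripts were summed into genes and whether strand was used are not given in the sources used here. Groups were taken from the sample titles. Counts were rounded, genes were kept by filterByExpr in edgeR 4.0.16 (minimum count 10), libraries were scaled by TMM, and quasi-likelihood tests with 1 coefficient per group over all 12 libraries gave 7 comparisons. P-values were adjusted by Benjamini-Hochberg over 21999 genes and called below 0.05; the kept genes held at least 99.98% of each library's counts. Standard errors and intervals were derived from the F statistic of the same test. Since replicates were biological samples processed together, p-values cover only their spread. Depth was 120.4 to 180.1 M counts per library.

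The members and gene lists were chosen with earlier results of these data known, so a list's count is a description. Named genes were all 7 members; from each list up to 2 called rises and 2 called falls that were largest over the mean of the 3 siRNAs at 1 CPM or more; RN7SK, HEXIM1, MEPCE, RO60, PABPC1, COL1A1 and COL1A2; and the 2 genes most correlated with each member, of which 1 is not reported here. Alternatives used RLE or upper quartile scaling, other filters, DESeq2 1.42.0, limma 3.58.1 (voom), a replicate block, fewer groups, and each library left out. Exon lengths and overlaps come from GENCODE 44, start windows from RefSeq and the snaR-A sequence from hg38. The fit was tested on simulated data. Replicates of a group differed beyond counting noise (chi-square per degree of freedom 12.5 to 59.8), so none was a recount of the same library. The statistic cannot tell whether libraries came from separate RNA samples.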

Additional observations from a re-analysis of the deposited data

Results flagged for a closer look

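LARP7 is singled out because every si-snaR-A#1 library lay below the scramble range and every si-snaR-A#2 and si-snaR-A#3 library above it, and because the effects themselves differed by the edgeR test. The effect of si-snaR-A#1 was below that of si-snaR-A#2 by -0.43 on the log2 scale (edgeR adjusted p = 2.3e-06) and below that of si-snaR-A#3 by -0.53 (edgeR adjusted p = 3.29e-07). The siRNA groups share their scramble libraries, which cancel in both differences. Single outlying libraries were not tested for within the groups of 3. The LARP7 rise under si-snaR-A#2 was called in 14 of 20 alternative settings. The pattern was not particular to LARP7. PABPC4 was called in the same directions, at log2 differences from scramble of -0.36, 0.33 and 0.36 by siRNA number. Over the 12 libraries, 1110 of 10197 genes compared ran with LARP7 at r above 0.9. The share of all genes that changed direction in this way was not tested.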

How the results depend on the processing

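Over 49 values of the 7 genes and up to 20 alternative settings, 973 results were computed, of which 869 kept direction and side of the threshold, 38 lost and 40 gained a call and 26 turned direction. The latter came from 8 uncalled differences of at most 0.07. They were LARP1B for si-snaR-A#2 minus si-snaR-A#3 (0 under RLE scaling, upper quartile scaling, DESeq2 and 2 groups alone, 0.02 at a mean of at least 1 CPM, -0.03 to 0.05 leaving out 1 library) and LARP1 there (-0.06 to 0.05); LARP4 for si-snaR-A#1 minus si-snaR-A#3 (0.03 under upper quartile scaling and at 1 CPM, -0.07 to 0.03) and LARP6 there (-0.01 to 0.13). The others were LARP6 with si-snaR-A#1 (0 at 1 CPM, 0.01 with 2 groups alone, -0.06 to 0.01), LARP4B with si-snaR-A#3 (-0.03 under upper quartile scaling, -0.01 at 1 CPM, -0.02 to 0.07), LARP4B for si-snaR-A#1 minus si-snaR-A#2 (0 under upper quartile scaling) and LARP7 over the mean (-0.01 under upper quartile scaling). Members called with si-snaR-A#2 became 5 under DESeq2 and with 2 groups alone, and 2 to 6 leaving out 1 library; over the mean 5 under upper quartile scaling, and 3 to 5; for si-snaR-A#2 minus si-snaR-A#3 1 under RLE scaling and with 2 groups alone, 4 under DESeq2, and 1 to 3. Over the mean, RNA polymerase III handling genes had 1 rise under upper quartile scaling and with no filter and 4 falls under upper quartile scaling; poly(A) genes had 5 rises under RLE scaling and at 1 CPM and 1 with no filter. By median transcript length LARP4B came to place 4, LARP6 to 5, LARP7 to 6 and LARP1B to 7. The cause was not tested. Same-numbered replicates did not pair (r -0.236 to 0.172, 5 of 18 above 0.1; 5 of 12 libraries ran best with their own number); a replicate block lost 1 member call, LARP1B with si-snaR-A#3, gained 3 and gave 9653, 5336 and 6162 calls over all genes for the 3 siRNAs. Over all genes, si-snaR-A#2 and si-snaR-A#3 differed for 3421, or 2215 without si-snaR-A#2 replicate 2. With 3 libraries a group and a common biological coefficient of variation of 0.117, the smallest difference called for a member was 0.13 on the log2 scale.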
